A study of Homo sapiens with 36 samples.

Results

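The genes described here encode 10 tubulin isotypes, the interchangeable protein subunits of microtubules. They are the beta-tubulin genes TUBB3, TUBB2A, TUBB2B, TUBB4A, TUBB and TUBB6 and the alpha-tubulin genes TUBA1A, TUBA1B, TUBA1C and TUBA4A. They were taken by symbol from the 62710 gene rows of the deposited tables, where each symbol had 1 row, and all 10 passed the filter on low counts in every comparison. A microtubule is a hollow polymer of dimers of 1 alpha-tubulin and 1 beta-tubulin, and a cell's mixture of isotypes changes as it stops dividing and grows an axon. Isotypes differ most in their acidic carboxy-terminal tail, which projects from the polymer and carries the enzymatic modifications read by motors and microtubule-associated proteins. TUBB3 is the classical neuron-enriched beta-tubulin, TUBA1A and TUBB2B are abundant in the developing brain, and TUBB, TUBA1B, TUBA1C and TUBB6 are widely expressed in dividing or non-neuronal cells.

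RNA depleted of ribosomal RNA was sequenced from H9, a human embryonic stem cell line, in which doxycycline turns on the proneural factor NGN2 and drives the cells to become neurons (label "iNeuron", also used for day 0). Libraries were labelled WT, RAI1 Heterozygous (HET, RAI1+/-) or RAI1 Knockout (KO, RAI1-/-), and come from days 0, 3 and 7 after induction, with 4 libraries in each of 9 groups and 36 in all. RAI1 encodes a chromatin protein. All groups share the inducible NGN2 and the culture medium, and 1 batch label covers every library. The labels call the libraries biological replicates but give neither the number of edited clones nor the number of cultures, so the p-values measure the spread between these libraries.

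Depth ran from 23948079 to 56678796 counts per library, and the 10 genes together took between 0.598% (WT day 0) and 2.11% (KO day 7) of the counts on average. RAI1 RNA was not lower in the edited groups: its level lay between 22.2 and 40.3 CPM (counts scaled to the normalised library size) in WT, 28.0 and 47.2 in HET and 23.6 and 48.8 in KO at day 0, and between 37.5 and 73.8, 50.5 and 85.7, and 63.9 and 95.7 CPM at day 7. RAI1 counts therefore do not check the genotype labels, and every direction below rests on those labels. The summed CPM of 8 pluripotency markers fell from 2403 to 5430 at day 0 to 69.6 to 354 at day 7, where POU5F1 and NANOG were below 1 CPM in every group's mean. The summed CPM of 11 neuron markers was 90.6 to 201 at day 0 and 4838 to 20820 at day 7. The day 0 libraries thus carried stem cell markers although their cell type label is iNeuron. HET day 7 replicate 1 stood apart from its group, with 27.5% of its counts in 5 small structural RNAs against 2.84% to 13.4% in the other 3, and results that rest on it are given with and without it.

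The tail-encoding ends of the coding sequences show where the beta-tubulins part. Each line holds the last 60 coding bases, stop codon included, from the principal transcript in GENCODE 29 on GRCh38, always in exon 4 of 4. Capitals mark bases that do not match the aligned base of TUBB, the beta-tubulin with the largest share in stem cells. Shown are TUBB, the neuron-enriched TUBB3, the near-identical pair TUBB2A and TUBB2B, and TUBB4A.
TUBB (chr6:30724338-30724397, plus strand): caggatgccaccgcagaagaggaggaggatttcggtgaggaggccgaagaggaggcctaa
TUBB3 (chr16:89935745-89935804, plus strand): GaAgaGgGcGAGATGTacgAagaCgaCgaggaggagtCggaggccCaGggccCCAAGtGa
TUBB2A (chr6:3153863-3153922, minus strand): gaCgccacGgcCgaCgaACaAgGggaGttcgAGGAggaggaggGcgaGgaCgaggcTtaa
TUBB2B (chr6:3224751-3224810, minus strand): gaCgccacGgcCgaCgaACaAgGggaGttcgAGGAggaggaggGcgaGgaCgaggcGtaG
TUBB4A (chr19:6495164-6495223, minus strand): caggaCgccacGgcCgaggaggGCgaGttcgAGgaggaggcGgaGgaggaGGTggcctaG

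TUBB3 departed from TUBB at 23 of these 60 bases, more than TUBB6 (20), TUBB2B (18), TUBB2A (17) or TUBB4A (14). TUBB and TUBB3, whose shares moved in opposite directions below, thus have unlike coding ends. Over whole coding sequences the pairs of beta-tubulins were 81.7% to 98.1% identical and the pairs of alpha-tubulins 84.6% to 97.4%.

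This likeness limits how well reads can be assigned. Of all stretches of 151 bases, the read length, in the TUBB2A transcript 49.3% were also found in another tubulin gene, each of them in TUBB2B, and the share was 39.3% for TUBB2B and 19.0% for TUBA1B. It was 6.74% for TUBA1A, 6.7% for TUBA1C, 2.46% for TUBB and 2.16% for TUBB3, and 0% for TUBB4A, TUBB6 and TUBA4A. The split between TUBB2A and TUBB2B is thus uncertain, and their sum is given for KO and WT at each day. TUBA4A is uncertain for another reason: STK16 overlaps it on the opposite strand, use of strand in the counting was not stated, and STK16 had 63.8% to 423% of the TUBA4A level. Genes on the opposite strand also span exon bases of TUBB4A, TUBB, TUBA1A, TUBA1B and TUBA1C. The one over TUBA1B, AC011603.2, had 17.2% of the TUBA1B level in HET day 7 replicate 1 alone (219.5 against 1279 CPM). The lowest HET day 7 library had 0.034%, and the other groups at most 0.0943%.

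In WT cells the leading alpha-tubulin changed from TUBA1B to TUBA1A and the leading beta-tubulin from TUBB to TUBB3. Shares were taken from the deposited TPM (a level per transcript length), as each isotype's percentage of the summed TPM of its family's members, so levels of different genes can be set side by side. TUBA1A made up 8.68%, 14.7%, 11.4% and 12.2% of the alpha members in the 4 WT libraries at day 0, 26.7%, 31.7%, 44.3% and 33.3% at day 3, and 80.9%, 83.8%, 84.8% and 85.7% at day 7. The 3 days did not overlap, and most of the shift fell between days 3 and 7. TUBA1B fell over the same days from 72.9% ± 3.3 to 61.1% ± 7.0 and 15.2% ± 1.8 (SD, n = 4 each), and TUBA1C from 15.1% ± 1.6 to 3.92% ± 0.86 and 0.753% ± 0.223.

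TUBB3 was 3.71%, 8.15%, 4.32% and 6.10% of the beta members in the WT libraries at day 0, 30.9%, 30.3%, 36.3% and 27.7% at day 3, and 44.4%, 45.8%, 46.4% and 52.0% at day 7. Its share rose in every step without overlap, and TUBB, the major beta-tubulin of stem cells, went the other way from 70.5% ± 3.7 to 55.2% ± 4.7 and 25.8% ± 2.0 (SD, n = 4). TUBB2B, a brain beta-tubulin, followed neither course, with 13.1% ± 0.8 at day 0, 7.78% ± 3.02 at day 3 and 21.0% ± 2.3 at day 7. TUBB6 fell from 4.06% ± 0.25 to 0.381% ± 0.112, and TUBB4A, a beta-tubulin known from mature brain and myelinating glia, stayed below 1% on average in WT.

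The genotypes differed in these shares at day 3. The TUBA1A share at day 3 was 39.3% to 60.7% in HET and 69.2% to 84.7% in KO, against 26.7% to 44.3% in WT. KO lay above both other groups, while HET and WT overlapped. TUBB3 held 43.0% to 52.8% of the beta members in KO at day 3, 33.6% to 43.5% in HET and 27.7% to 36.3% in WT, so KO at day 3 reached the range of WT at day 7 (44.4% to 52.0%). At day 7 the order of the TUBB3 share was the reverse: it was 34.0% to 36.2% in KO, below every WT library, and 35.7% to 47.5% in HET. The 47.5% was HET replicate 1, and without it the HET share was 35.7% to 41.3%, below every WT library too. The KO libraries at day 7 held more TUBB2B instead, 28.0% to 30.3% against 18.01% to 22.9% in WT, with TUBB at 24.7% ± 1.2 in KO and 25.8% ± 2.0 in WT. By the mean share, TUBA1A was the largest alpha member in 5 of the 9 groups, HET at day 3 and KO at day 3 included. In HET at day 3 this did not hold in every library. TUBA1B was larger than TUBA1A there in replicate 1 (49.2% against 47.4%) and replicate 4 (53.5% against 39.3%). TUBB3 was the largest beta member in 4 of 9 groups by TPM but in 2 of 9 by counts, since the TUBB transcript is longer (2670 bases against 1769) and collects more reads per molecule.

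**Figure D1:**
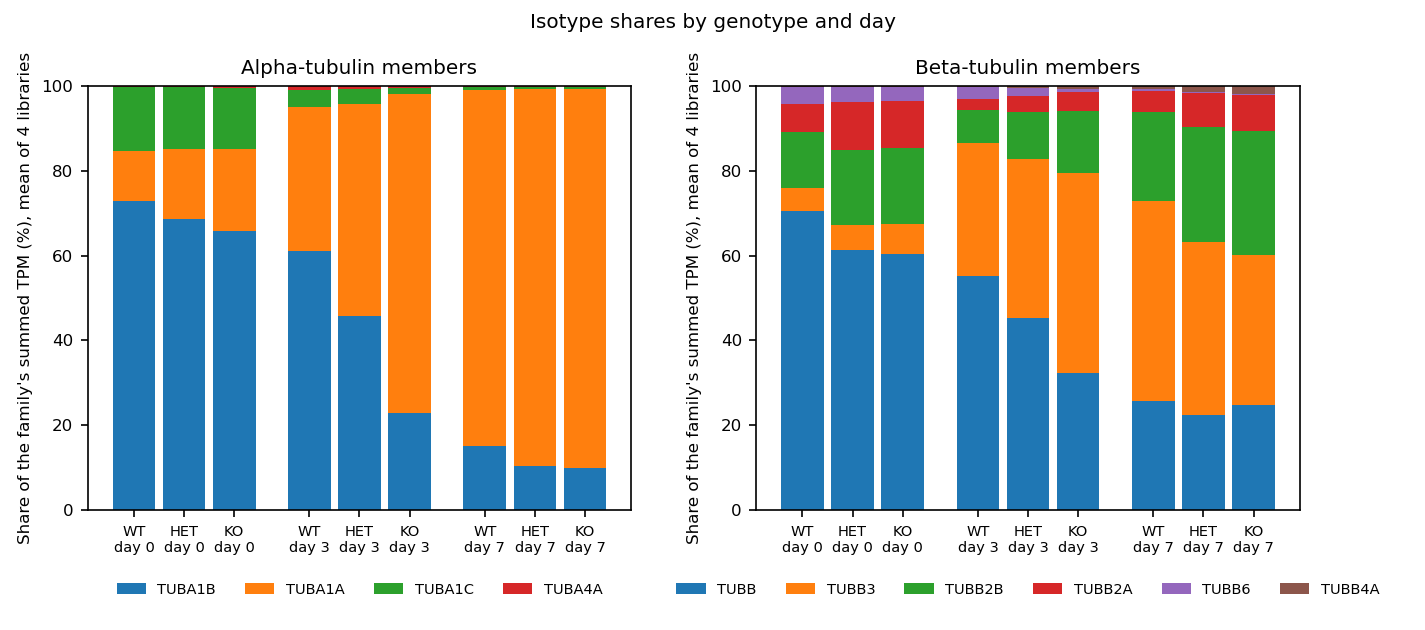
Stacked bars give the mean share (%) of each isotype in the summed TPM of the alpha-tubulin members (left) and the beta-tubulin members (right) for the 9 genotype and day groups, 4 libraries each. The TUBA1A segment grows from 11.8% to 83.8% in WT and already reaches 75.2% in KO at day 3, while the TUBB3 segment of KO falls from 47.2% at day 3 to 35.3% at day 7.

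Counts were then tested gene by gene across all genes, with edgeR and an adjusted p under 0.05 as the call. In WT between days 0 and 3, 4 of the 10 genes changed, where 60% of all tested genes did. TUBB3 had 69.9, 174, 76.3 and 120 CPM at day 0 and 956, 866, 996 and 863 CPM at day 3, all day 3 libraries being far above day 0. Its rise was 3.06 on the log2 scale (SE 0.30, adjusted p 9.884e-07). TUBA1A rose by 2.03 (SE 0.25, adjusted p 9.802e-06), from 336 ± 91 to 1370 ± 364 CPM (SD, n = 4). TUBA4A, an alpha-tubulin of mature neurons and muscle, rose by 2.15 (SE 0.31, adjusted p 3.643e-05) with the uncertainty given above, and TUBA1C fell by 1.42 (SE 0.16, adjusted p 3.328e-06). TUBB, TUBB6 and TUBA1B did not pass at 0.30, 0.07 and 0.24. TUBB2A gave -0.67 (adjusted p 0.0545) and passed without WT day 0 replicate 3 (0.0489) or WT day 3 replicate 4 (0.0375). It was called lower in 9 of 11 other alternatives, DESeq2 among them (-0.73, adjusted p 0.0362), and gave -1.67 on the TPM (adjusted p 5.941e-05). TUBB4A gave 0.61 (adjusted p 0.145) and passed without WT day 3 replicate 1 (0.0310). TUBB, TUBB6, TUBA1B and TUBB4A had values of the opposite sign on the deposited TPM: TUBB gave -0.73, TUBB6 -0.86 and TUBA1B -0.78 in limma, called in each case (adjusted p 0.0174, 0.00789 and 0.00567), and TUBB4A gave -0.15, which was not called. The change of scale itself was large, as the median of all genes moved by up to 1.10 log2 between the scales.

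Between days 3 and 7, 9 of 10 changed in WT, against 46.2% of all genes. TUBB4A had 2.89, 6.30, 7.61 and 8.07 CPM at day 3 and 33.9, 73.1, 92.0 and 91.0 CPM at day 7. The days did not overlap, and its rise of 3.55 log2 (SE 0.37, adjusted p 2.606e-06) was the largest among the 10 in this step. TUBB2B rose by 2.81, TUBA1A by 2.44, TUBB2A by 2.31 and TUBB3 by 2.03. TUBB6 and TUBA1C both fell by 1.86, TUBA1B fell by 0.88 and TUBA4A by 0.92. The fall of TUBA4A rested on single libraries: it lost its call without WT day 3 replicate 4 (adjusted p 0.0886) or WT day 7 replicate 2 (0.0646). TUBB was the exception at 0.27 (adjusted p 0.204). It passed without WT day 7 replicate 1 (0.39, adjusted p 0.0416) and gave -0.12 on the TPM. Its CPM lay between 2266 and 4012 in all 12 WT libraries while its share fell and other beta members rose.

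**Figure D2:**
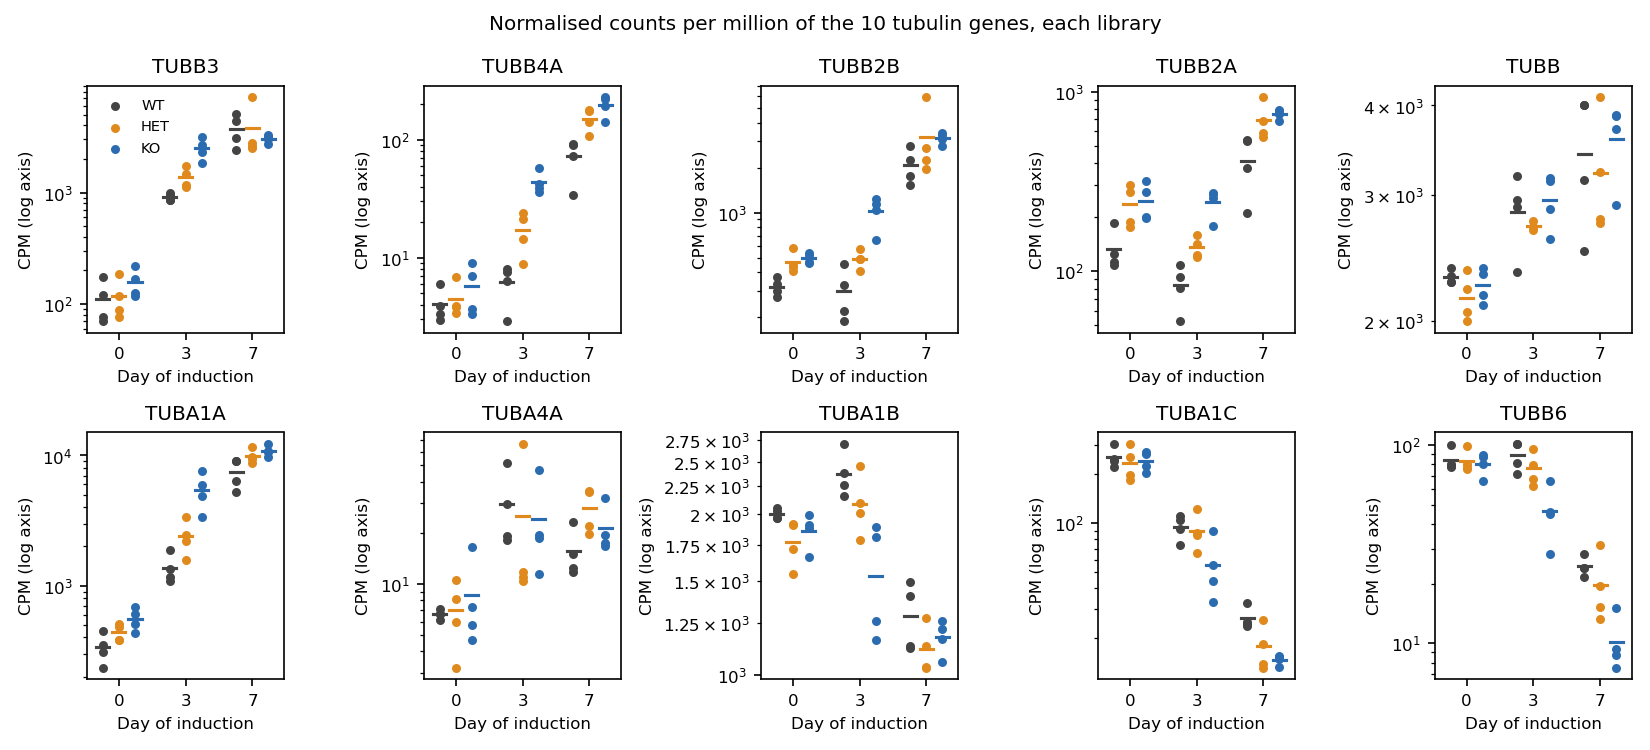
Each panel plots 1 gene's normalised CPM (log axis) against the day of induction, a point per library and a bar at the mean of 4, coloured by genotype. TUBB3, TUBB4A, TUBB2B and TUBA1A climb by day 7 in all 3 genotypes, with KO highest at day 3, TUBB6 and TUBA1C fall, and TUBB stays between 1999 and 4108 CPM.

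In HET, 6 of 10 genes changed between days 0 and 3 (48.3% of all genes did) and 8 of 10 between days 3 and 7 (41.2%). TUBB3 rose by 3.54 log2 and then by 1.46 in HET, TUBA1A by 2.44 and 2.04, and TUBB4A by 1.91 and 3.15. TUBB2A fell by 0.80 (SE 0.22, adjusted p 0.00822) before it rose by 2.35, and TUBA1C fell by 1.39 and by 2.36. Without HET day 7 replicate 1 the second TUBB3 rise was 0.95 (adjusted p 0.0112) and that of TUBB2B 2.23 in place of 2.71.

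In KO, 8 of 10 changed between days 0 and 3 (59.3% of all genes) and 6 of 10 between days 3 and 7 (47.8%). TUBB3 had 167, 217, 117.5 and 125.5 CPM at day 0, 3127, 1846, 2669 and 2336 at day 3, and 3128, 3016, 3262 and 2714 at day 7 in KO. The first step was a rise of 3.98 log2 (SE 0.25, adjusted p 1.572e-08), and the second, where the libraries overlapped, was 0.32 (SE 0.22, adjusted p 0.243; -0.10 on the TPM). TUBA1A rose by 3.27 and then by 1.04 log2, TUBB4A by 2.89 and 2.21, and TUBB2B by 1.03 and 1.66. On the TPM the second TUBA1A rise (0.71, adjusted p 0.115) and the first TUBB2B rise (0.50, adjusted p 0.208) were not called in limma. TUBB6, which did not pass the test between days 0 and 3 in WT, fell in KO by 0.82 (SE 0.24, adjusted p 0.0100) and then by 2.15. TUBB rose by 0.37 in the first step (adjusted p 0.0484), a call that was lost in 7 of 8 fits that left out 1 library (adjusted p up to 0.108) and became -0.11 on the TPM. TUBA4A rose by 1.85 in HET and 1.48 in KO between days 0 and 3, but without HET day 3 replicate 4 (66.96 CPM against 10.4 to 11.8 in the other 3) the HET value was 0.64 (adjusted p 0.145), and without KO day 3 replicate 4 the KO value was 0.93 (adjusted p 0.0562). The HET rise of TUBA4A was also lost without HET day 0 replicate 1 (adjusted p 0.0609) or 3 (0.0577).

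The comparison of edited with WT cells within a day asks how the isotypes depend on RAI1 dose. At day 0, KO differed from WT in 1 of the 10 genes (2.08% of all genes were called). That gene was TUBB2B, with 301, 370, 272 and 332 CPM in WT and 461, 519, 535 and 471 in KO. Every KO library was above every WT library, and the difference was 0.67 log2 (SE 0.12, adjusted p 0.00830). TUBB2A (0.93, adjusted p 0.0627) and TUBA1A (0.76, adjusted p 0.0701) missed the threshold. With the replicate number as a block both passed (adjusted p 0.00834 and 0.0211). Same-numbered KO and WT libraries deviated together (correlation 0.29 to 0.695). HET libraries enter this fit too, and HET replicate 1 did not deviate with WT (-0.043) or KO (-0.096). The labels do not say what the numbers share. Both genes also passed without WT day 0 replicate 2 (0.0244 and 0.0228). TUBA1A also passed without KO day 0 replicate 1 (0.0428). The other 7 lay between -0.08 and 0.54. Summed, because their reads can be exchanged, TUBB2A and TUBB2B had 380.5 to 554 CPM in WT and 660 to 835 in KO, without overlap.

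HET differed from WT at day 0 in TUBB2B as well and in no other of the 10 (1.63% of all genes). TUBB2B had 580, 449, 407 and 436 CPM in HET, all above WT, a difference of 0.58 log2 (SE 0.12, adjusted p 0.0261). This call was lost in 5 of the 8 fits without 1 library: without WT replicate 1 (adjusted p 0.0951), 3 (0.102) or 4 (0.0673) and without HET replicate 1 (0.0586) or 2 (0.0567). The HET and KO comparisons share their WT libraries. Summed, TUBB2A and TUBB2B had 595 to 883 CPM in HET, above every WT library. TUBB2A gave 0.86 (adjusted p 0.1097) in HET and passed without WT replicate 2 (0.0426), with the replicate block (0.0154) and with DESeq2 (0.0132). Same-numbered HET and WT libraries did not all deviate together at day 0 (correlation -0.043 to 0.629). Between KO and HET at day 0, edgeR called none of the 10 (0.856% of all genes), with none at an unadjusted p under 0.05 and none by DESeq2 or by limma on TPM.

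At day 3, KO differed from WT in 7 of 10 genes, 5 higher and 2 lower, against 21.6% of all genes. TUBA1A had 1076, 1167, 1888 and 1349 CPM in WT, 2434, 2220, 3396 and 1580 in HET and 7613, 3355, 5895 and 4863 in KO. KO lay above WT in every library and HET overlapped both. The KO difference was 1.98 log2, a 3.93-fold higher level (SE 0.31, adjusted p 0.000541). TUBB3 was higher by 1.43 (SE 0.21, adjusted p 0.000383), with 863 to 996 CPM in WT and 1846 to 3127 in KO.

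TUBB4A showed the largest KO difference of the 10 at day 3. It had 2.89, 6.30, 7.61 and 8.07 CPM in WT, 14.3, 21.5, 23.96 and 8.91 in HET, and 57.9, 38.9, 42.4 and 36.1 in KO. The 3 genotypes did not overlap, and KO was 6.98-fold above WT (2.80 log2, SE 0.35, adjusted p 0.000120). TUBB2B was higher in KO by 1.77 (SE 0.29, adjusted p 0.000756) and TUBB2A by 1.53 (SE 0.22, adjusted p 0.000360). Summed, because reads of this pair can be exchanged, they had 240 to 563 CPM in WT and 840 to 1505 in KO, again without overlap.

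The lower genes at day 3 were TUBB6 and TUBA1B. TUBB6 had 102, 102, 71.3 and 81.3 CPM in WT and 28.3, 45.0, 45.9 and 66.3 in KO, a fall by 0.96 log2 (SE 0.24, adjusted p 0.0111) without overlap. TUBA1B fell by 0.65 (SE 0.21, adjusted p 0.0383), a call lost in 6 of 8 fits that left out 1 library: WT replicate 1 (adjusted p 0.1001), 2 (0.0595), 3 (0.0561) or 4 (0.0751), KO replicate 1 (0.116) or 2 (0.0977). The TUBA1B call was kept with the replicate block (-0.67, adjusted p 0.00965) but lost in 4 of 11 other alternatives. On the TPM neither fall passed (TUBB6 -0.49, TUBA1B -0.14), while the shares of both fell. TUBA1C gave -0.79 (adjusted p 0.0607) and passed with the replicate block (-0.85, adjusted p 0.00545) or without KO replicate 4 (0.00568). TUBB did not differ by the test, at 0.04 (adjusted p 0.892), a value that was -0.02 without WT replicate 3.

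Marker sums also differed between the genotypes at day 3. The summed CPM of the 11 neuron markers was 508 to 821 in WT, 1101 to 3315 in HET and 3428 to 6237 in KO, and that of 8 proliferation markers was 1335 to 2770, 1649 to 2556 and 561 to 1540. KO replicate 1 had the lowest proliferation sum (561), the highest neuron sum (6237) and the highest TUBA1A share (84.7%) of the day. The 8 pluripotency markers had 215 to 328 CPM in WT, 257 to 467 in HET and 337 to 459 in KO. For these markers every KO library was above every WT library. The 5 neural progenitor markers had 1125 to 1560 CPM in WT, 1117 to 1342 in HET and 727 to 1198 in KO. The 6 mesenchymal markers had 222 to 565 CPM in WT, 133 to 886 in HET and 53.6 to 249 in KO, the 6 glial markers 14.5 to 37.5 in all groups with MOG at 0, and FOXA2, an endoderm gene, was at 0 in every library of the day. Their part in the tubulin differences was not tested. In whole cultures a changed proportion of neurons and a changed amount of tubulin RNA per neuron cannot be told apart.

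**Figure D3:**
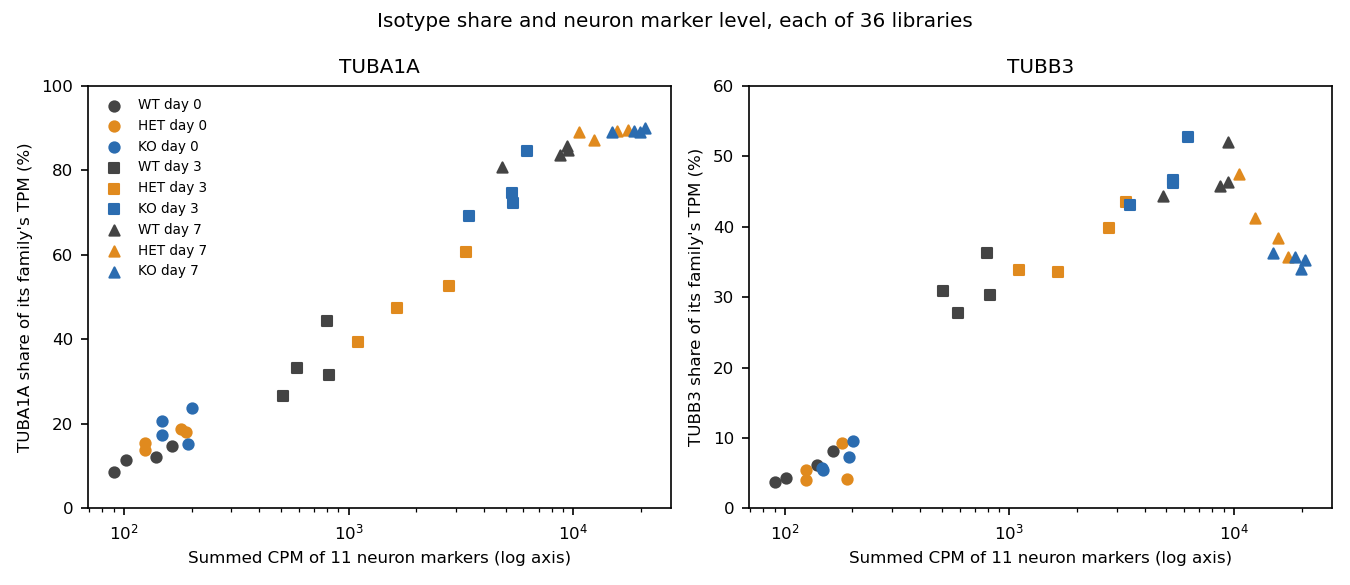
Each point is 1 of the 36 libraries, with the summed CPM of 11 neuron markers on a log axis and the share (%) of TUBA1A in the alpha members (left) or of TUBB3 in the beta members (right) on the other. The TUBA1A share climbs with the marker sum up to about the KO day 7 libraries (89.1% to 90.1%), whereas the TUBB3 share is 43.0% to 52.8% in KO day 3, 44.4% to 52.0% in WT day 7 and 35.7% to 47.5% in HET day 7 libraries, and 34.0% to 36.2% in the KO day 7 libraries, whose marker sums run from 14890 to 20820. The 47.5% is HET day 7 replicate 1, without which the HET day 7 range is 35.7% to 41.3%.

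HET differed from WT at day 3 in 1 of 10 genes (3.28% of all genes). TUBB4A was 2.79-fold higher, 1.48 log2 (SE 0.34, adjusted p 0.0295), but the call was lost without WT replicate 1 (adjusted p 0.0674), 2 (0.0809) or 3 (0.0613) and without HET replicate 2 (0.0901) or 3 (0.107). With the replicate block 4 genes passed, all higher in HET: TUBB4A, TUBB2A (adjusted p 0.0332), TUBB2B (0.0339) and TUBA1A (0.0411). The share of all genes called in that fit is not given here. Same-numbered HET and WT libraries deviated together (correlation 0.166 to 0.796). KO libraries enter this fit too, and KO and HET replicate 1 did not deviate together (-0.084). Without the block TUBB2A gave 0.72, TUBB2B 0.73, TUBA1A 0.82 and TUBB3 0.59, with adjusted p from 0.108 to 0.230. KO exceeded HET at day 3 in 3 of 10 genes (4.35% of all genes): TUBB4A by 1.33 (SE 0.33, adjusted p 0.0404), TUBA1A by 1.15 (SE 0.30, adjusted p 0.0455) and TUBB3 by 0.84 (SE 0.21, adjusted p 0.0374).

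These 3 calls between KO and HET were close to the threshold. All 3 were lost without HET replicate 1, 2 or 4 or without KO replicate 1, with adjusted p of 0.0579 to 0.156, and without KO replicate 3 (0.0747 to 0.0940). Without KO replicate 2, TUBB4A was lost (0.0642) while TUBB2A (0.0357) and TUBB2B (0.0323) passed. With all libraries TUBB2B gave 1.04 (adjusted p 0.0542) and TUBB2A 0.81 (adjusted p 0.0546). For TUBB3 and TUBB4A every KO library lay above every HET library at day 3, as it did for TUBB2A and TUBB2B. The other 6 genes overlapped, TUBA1A among them. The share of all genes that separated in this way was not taken, so this is a description only. Without KO replicate 4 the count of called genes was 5.

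**Figure D4:**
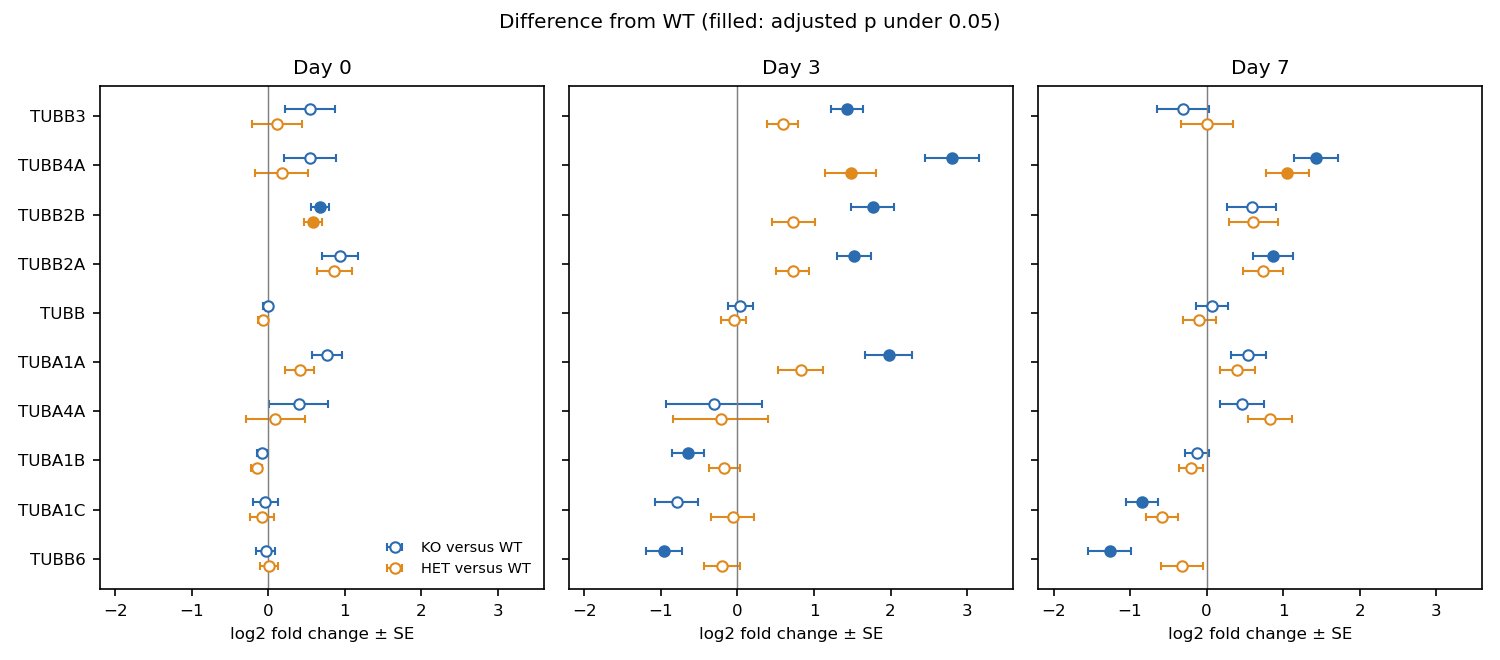
Points give the log2 fold change from WT of KO (blue) and HET (orange) for each gene at days 0, 3 and 7, with bars of 1 SE; filled points had an adjusted p under 0.05. At day 3 the KO values run from -0.96 (TUBB6) to 2.80 (TUBB4A), and at day 7 TUBB3 lies at -0.31 in KO while TUBB4A stays at 1.43.

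At day 7, KO differed from WT in 4 of 10 genes, against 32.6% of all genes, so the share of the tubulins was near that of the background. TUBB4A had 33.9, 73.1, 92.0 and 91.0 CPM in WT, 175, 142, 178.5 and 108.5 in HET and 220, 191, 229 and 142 in KO. Both edited groups lay above WT in every library, by 1.43 log2 in KO (SE 0.28, adjusted p 0.00233). TUBB2A was higher in KO by 0.86 (SE 0.26, adjusted p 0.0232), a call lost without WT replicate 2 (0.0597) or without KO replicate 1 (0.0654) or 3 (0.0547). TUBB6 fell by 1.27 in KO (SE 0.28, adjusted p 0.00415), with 21.7 to 28.4 CPM in WT and 7.53 to 15.02 in KO, and TUBA1C fell by 0.85 (SE 0.21, adjusted p 0.00777), with 23.7 to 32.6 and 13.2 to 15.3. On the TPM TUBB6 gave -0.79 and TUBA1C -0.02, neither called.

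Of the genes higher at day 3, TUBB3, TUBA1A and TUBB2B did not pass at day 7. TUBB3 had 2402, 3102, 4413 and 5086 CPM in WT and 3128, 3016, 3262 and 2714 in KO at day 7. The KO libraries lay inside the WT range, and the difference was -0.31 log2 (SE 0.34, adjusted p 0.516), a value of the opposite sign when the fit included the percentage of small structural RNAs (0.04) and on the TPM (0.27). TUBA1A gave 0.54 (adjusted p 0.0809) with 5239 to 9129 CPM in WT and 9721 to 12310 in KO, which did not overlap. TUBB2B gave 0.59 (adjusted p 0.174) and passed when the HET libraries were left out of the fit (0.58, adjusted p 0.0374) or the percentage of small structural RNAs was included (0.93, adjusted p 0.0239). Summed, TUBB2A and TUBB2B had 1751 to 3336 CPM in WT and 3459 to 4169 in KO, without overlap. The 5 small structural RNAs took 14.5% to 25.6% of WT counts and 9.90% to 15.8% of KO counts at this day, and the neuron marker sum was 4838 to 9454 CPM in WT and 14890 to 20820 in KO. Other marker sums did not overlap either: KO was higher for the pluripotency markers (291 to 354 CPM against 69.6 to 107 in WT). Only 3 of these 8 markers reached a mean of 1 CPM in either group, POU5F1 and NANOG not among them. KO was lower for the proliferation markers (20.4 to 24.8 against 47.4 to 274), the 5 neural progenitor markers (452 to 532 against 778 to 874) and the mesenchymal markers (2.68 to 5.19 against 29.3 to 39.0). The part of the markers in these values was not tested.

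HET differed from WT at day 7 in TUBB4A only among the 10 (14.4% of all genes), by 1.05 log2 (SE 0.28, adjusted p 0.0248), which was lost without WT replicate 2 (0.0574) or HET replicate 3 (0.0766). HET replicate 1 had 7171 CPM of TUBB3 and 5905 of TUBB2B, against 2537 to 2779 and 1962 to 2684 in the other 3. Without it TUBB4A was called at 0.95 (adjusted p 0.0270), and TUBB6 (-0.66, adjusted p 0.0404) and TUBA1C (-0.84, adjusted p 0.00198) were called too. TUBB3 gave -0.53 in place of 0.005 (adjusted p 0.0905). Without WT replicate 3 the count was 2. Between KO and HET at day 7 none of the 10 was called by edgeR (1.4% of all genes), with 1 gene at an unadjusted p under 0.05 and none by limma on TPM. DESeq2 called 1, TUBB6, at -0.94 (adjusted p 0.0397), against an edgeR value of -0.95 (adjusted p 0.138).

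The interaction tests compare the change over time itself between genotypes, on all 36 libraries. From day 0 to day 3, 2 of 10 genes rose more in KO than in WT (8.55% of all genes were called): TUBB4A by 2.30 log2 (SE 0.49, adjusted p 0.00298) and TUBA1A by 1.26 (SE 0.34, adjusted p 0.0174). The TUBA1A call was lost without WT day 0 replicate 2 (0.0603) or KO day 3 replicate 1 (0.0692). TUBB2B gave 1.14 (adjusted p 0.0524), with a call without WT day 3 replicate 4 (0.0160) or KO day 3 replicate 2 (0.0325). Without KO day 3 replicate 4, 5 of the 10 were called.

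From day 3 to day 7, 4 of 10 rose less in KO than in WT (18.5% of all genes): TUBB3 with a difference of -1.75 log2 (SE 0.44, adjusted p 0.00469), TUBA1A with -1.44 (SE 0.34, adjusted p 0.00237), TUBB4A with -1.39 (SE 0.48, adjusted p 0.0387) and TUBB2B with -1.19 (SE 0.37, adjusted p 0.0228). The calls of TUBB3 and TUBA1A were kept in every fit that left out 1 library. Those of TUBB4A and TUBB2B were not, each being lost without WT day 3 replicate 1 (adjusted p 0.11 and 0.0765), WT day 3 replicate 2 (0.0695 and 0.0720), KO day 3 replicate 1 (0.112 and 0.0718) or WT day 7 replicate 3 (0.0817 and 0.0640). TUBB4A was further lost without KO day 3 replicate 2 (0.0501), WT day 7 replicate 2 (0.0559) or 4 (0.0794), or KO day 7 replicate 2 (0.0634) or 4 (0.0781). On the TPM none of the 10 passed in either interval. HET gave no call among the 10 in either interval by edgeR (0.271% and 4.74% of all genes), with 1 and 0 genes at an unadjusted p under 0.05 and none by DESeq2 or limma, although 1 was called in the second interval without HET day 3 replicate 4. The day 3 libraries enter both intervals, so the 2 sets of values are not independent.

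Promoters were read for all 10 genes as the 250 bases before the RefSeq start on GRCh38.p14. NGN2 is a basic helix-loop-helix factor of the class that binds E-boxes, CANNTG, a motif that reads as an E-box on both strands. An E-box was present in 61.8% of 34788 promoter windows of this length. Among the tubulins it was found in the windows of TUBB4A, TUBA1C and TUBA4A, and its letters were not in those of the other 7. The TUBB4A window is shown because this gene had the largest KO difference at day 3. Capitals mark its 3 E-boxes, which start 140, 89 and 37 bases before the RefSeq start. That start lies 264 bases from the start of the GENCODE transcript used above. The E-box nearest to the start reads CATCTG, letters that were present on 1 strand or the other in 12.2% of windows.
TUBB4A promoter (chr19:6502849-6503098, minus strand): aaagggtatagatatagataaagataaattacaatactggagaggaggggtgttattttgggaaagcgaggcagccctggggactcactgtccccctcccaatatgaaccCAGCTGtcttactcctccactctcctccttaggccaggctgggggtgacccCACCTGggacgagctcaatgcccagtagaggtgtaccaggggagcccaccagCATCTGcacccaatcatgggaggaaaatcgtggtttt

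The genes whose TPM followed a tubulin most closely over the 36 libraries were named from 5599 genes by Pearson's r of log2(TPM + 1). For TUBA1A they were NEFL, a neurofilament subunit (0.981), MYT1, a neural zinc finger factor (0.981), and MAP6, a microtubule-stabilising protein (0.980). For TUBB3 they were CELF3, a neuronal RNA-binding protein (0.976), EBF1, a transcription factor (0.975), and SEPTIN6, a septin filament subunit (0.974). For TUBB6, which falls over time, they were CDK2, a cell cycle kinase (0.978), ORC6, a subunit of the replication origin complex (0.977), and BRCA1, a DNA repair protein (0.974). The libraries share day and genotype, so these values describe the common time course.

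Other genes of the tubulin pathway were described from lists. Of 25 genes for enzymes of tubulin acetylation, tyrosination, glutamylation and their removal, 11 differed between KO and WT at day 3, 8 higher and 3 lower, where 21.6% of all genes differed (median 0.10 log2 against -0.05 for all genes). The largest were AGBL1 (2.47, adjusted p 0.00991) and AGBL4 (2.27, adjusted p 0.0111), deglutamylases of low level (2.00 to 10.7 and 0.519 to 1.41 CPM in KO), and the polyglutamylase TTLL6 (1.49, adjusted p 5.634e-05), with 16.2 to 23.2 CPM in WT and 45.8 to 65.0 in KO. At day 7, 10 of 24 differed, 6 higher and 4 lower, a share near the 32.6% of all genes (median -0.01 log2 against -0.04). VASH2, which removes the terminal tyrosine of alpha-tubulin, had 3.55 to 15.9 CPM in WT and 73.0 to 89.1 in KO at day 7 (2.93 log2, adjusted p 0.000157), whereas at day 3 it had 76.2 to 107 in WT and 18.4 to 47.4 in KO. AGBL4 was higher (2.57) and AGBL2 lower (-2.33) at day 7.

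Both genes of tubulin mRNA autoregulation were higher in KO at day 7, where 32.6% of all genes differed. They couple excess free tubulin to decay of tubulin mRNA. SCAPER was higher by 0.77 (adjusted p 0.00823) and TTC5 by 0.48 (adjusted p 0.0119). TTC5 was also higher at day 3, by 0.58 (adjusted p 0.0131). Of 9 nucleation genes 3 were lower in KO at day 3, where 21.6% of all genes differed, among them NEDD1 (-0.67, adjusted p 0.0115), which recruits the gamma-tubulin ring complex and was also lower at day 7 (-1.16, adjusted p 0.00159). Of 22 tested identifiers of the folding machinery, 1 was called between KO and WT at day 3, where 21.6% of all genes were. At day 7, 2 were called, against 32.6% of all genes. In WT, 11 of the 22 changed between days 0 and 3 (6 higher and 5 lower, where 60% of all genes changed). Between days 3 and 7, 12 of the 22 changed, near the 46.2% of all genes, 10 of them lower and 2 higher. Among the lower were the chaperonin subunits CCT5 (-1.25), CCT7 (-0.95) and CCT3 (-0.92). At day 0 no gene of these 4 lists, or of the 8 other tubulins tested, was called between any pair of genotypes. Among the other tubulins TUBG1, the gamma-tubulin of dividing cells, fell by 0.63 in KO at day 3 (adjusted p 0.0254), and TUBB8 was higher in KO at day 7 (2.65, adjusted p 0.00283) at a very low level, 0.0296 to 0.119 CPM in WT and 0.308 to 0.756 in KO.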

How the data were processed

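Libraries were made from rRNA-depleted total RNA and read as 151 bp pairs, per the labels' protocols. The submitters' processing notes name the build GRCh38 and the tools cutadapt 4.8, FastQC 0.11.8, STAR 2.7.8a, RSEM 1.3.3 and MultiQC 1.20. The authors deposited expected counts per gene, whole numbers in every cell, and TPM, values per transcript length. Use of strand in counting is not given in the sources used here. The 4 reporter rows (at most 0.0171% of a library) were left out.

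The members and lists were chosen with earlier results of these data known. All 10 members were named; so were RAI1, the 3 genes of most alike TPM pattern for TUBB3, TUBA1A and TUBB6 (mean TPM of at least 10), and up to 3 called genes of largest change per pathway list and comparison.

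Counts were tested with edgeR 4.0.16 in R 4.3.3: filterByExpr removed low genes, TMM set the scale, and quasi-likelihood tests were adjusted by Benjamini-Hochberg over all genes tested. Genotypes were compared on the 12 libraries of a day, days on the 12 of a genotype, and interactions on all 36. Fold changes come from these fits, and CPM were TMM-scaled. Alternatives were DESeq2 1.42.0 and its size factors, library size alone, 2 filters, limma 3.58.1 on log2(TPM + 1) and log2(TPM + 0.1), other sets of libraries, a covariate for the percentage of small structural RNAs, a block for the replicate number, and fits without each replicate. Same-numbered libraries deviated together across genes in all 4 pairs (correlation above 0.1) for KO and WT at day 0 (0.29 to 0.695), KO and WT at day 3 (0.129 to 0.588) and HET and WT at day 3 (0.166 to 0.796). No label says what the numbers share. The coding ends of the alpha-tubulins are not reported here. Sequences came from GENCODE 29 transcripts and RefSeq promoters by Python 3.11.15 and Biopython 1.88. The scripts were tested on simulated data.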

Additional observations from a re-analysis of the deposited data

Results flagged for a closer look

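In 5 of the 90 gene and group sets of 4 libraries, 1 library lay farther from the others than the critical value of Dixon's test allows at the 95% level, and chance gives about 1 in 20. These were TUBB3 in HET day 7 replicate 1 (7171 CPM), TUBB4A in HET day 0 replicate 4 (6.82 CPM), TUBB6 in WT day 0 replicate 2 (100.8 CPM), TUBA1C in WT day 7 replicate 1 (32.6 CPM) and TUBA4A in HET day 3 replicate 4 (67.0 CPM).

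The interaction test found 6 differences between KO and WT in the change over time. From day 0 to day 3 the differences were 2.30 log2 for TUBB4A and 1.26 for TUBA1A. From day 3 to day 7 they were -1.75 for TUBB3, -1.44 for TUBA1A, -1.39 for TUBB4A and -1.19 for TUBB2B.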

How the results depend on the processing

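Of 65 called results of single genes, 40 kept their call in all alternatives that left no library out, 50 in every fit without 1 library and 39 in both, and 1 changed sign. Taken over counts, 47 of 90 shares lay within 1 SD of the main share. All 360 shares without 1 library did so too, but this was certain beforehand. Leaving 1 library out of a group cannot move its mean by 1 SD of that group. The 360 values therefore do not test how stable the shares are. Causes of the changes below were not tested.

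Counts of called genes moved as follows, without the share of all genes called in the same alternative fit unless it is stated. KO against WT at day 0 (1) gave 3 with no low-count filter, with the replicate block and with DESeq2, and 0 on all 36 libraries. HET against WT at day 0 (1) gave 2 with the replicate block and DESeq2, and 0 with limma on TPM at both pseudocounts, only the compared groups or all 36 libraries. HET against WT at day 3 (1) gave 4 with the replicate block, 3 with the structural RNA covariate, 2 with DESeq2 and on all 36 libraries, and 0 with limma at both pseudocounts or only the compared groups. KO against HET at day 3 (3) gave 6 with the replicate block, 5 with DESeq2 size factors, the covariate, DESeq2 and all 36 libraries, 1 with only the compared groups and 0 with limma at both pseudocounts. KO against WT at day 7 (4) gave 2 with limma at both pseudocounts. HET against WT at day 7 (1) gave 5 with limma at both pseudocounts, 4 by library size, 3 with DESeq2, 2 with the covariate and on all 36 libraries, and 0 with only the compared groups. KO against HET at day 7 (0) gave 1 with the covariate, DESeq2 and all 36 libraries. WT day 3 against day 0 (4) gave 9 with limma at both pseudocounts. Of all 14095 genes tested in these fits, 10570 (pseudocount 1) and 10439 (pseudocount 0.1) were called. The KO interaction from day 0 to 3 (2) gave 5 by library size, 4 with DESeq2 and only the compared groups, and 0 with limma at both pseudocounts, which also gave 0 for days 3 to 7 (4). TUBB3 was the largest beta member in 2 groups by counts.

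Without 1 library the counts ran, at day 0, from 1 to 3 (KO-WT), 0 to 2 (HET-WT) and 0 to 0 (KO-HET). They ran from 6 to 8, 0 to 1 and 0 to 5 at day 3, and from 3 to 4, 0 to 3 and 0 to 0 at day 7. Over time they ran from 4 to 5 and 8 to 10 in WT, 5 to 6 and 8 to 9 in HET, and 7 to 8 and 6 to 7 in KO. The interactions gave 1 to 5 and 2 to 5 in KO, and 0 to 0 and 0 to 1 in HET. TUBA1A was the largest alpha member in 4 to 5 groups and TUBB3 the largest beta member in 4.

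Signs changed for TUBB in KO against WT at day 3 without WT replicate 3 (-0.022, within a range of -0.022 to 0.107 over the fits without 1 library) and for TUBB3 at day 7 (0.040 with the covariate, 0.27 and 0.28 with limma on TPM). With limma at the 2 pseudocounts, day 3 against day 0 in WT gave -0.15 and -0.26 for TUBB4A, -0.73 and -0.73 for TUBB, -0.86 and -0.89 for TUBB6 (-0.027 by library size) and -0.78 and -0.79 for TUBA1B. TUBB gave -0.12 in WT from day 3 to 7 and -0.11 in KO from day 0 to 3, and TUBB3 -0.10 in KO from day 3 to 7. These TPM fits shift the median of all genes by -1.10 to 0.85 log2. The replicate block pairs libraries by a number whose meaning the labels do not give.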
